A study of Homo sapiens with 6 samples.

Results

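The MYC network genes studied here were 10 genes for transcription factors that work as dimers around MAX and MLX: MYC, MAX, MXD1, MXD3, MXD4, MXI1, MNT, MGA, MLX and MLXIP. They were chosen by symbol and matched to the Ensembl identifiers of the deposited tables, where all 10 were found among 19493 genes with values. All cells were HaCaT keratinocytes (a spontaneously immortalised human skin line), and in every group they carried the photolyase of the marsupial Potorous tridactylus, an enzyme that splits cyclobutane pyrimidine dimers (CPDs) in DNA when visible light drives it. Each of 3 groups had 2 libraries. The first had 15 J/m2 of UVC light (254 nm), harvest at 6 h and the photolyase made active with white light for 2 h (called UVC with active photolyase), the second the same dose and harvest time with the enzyme inactive (UVC), and the third neither UVC nor an active enzyme (control). White light is listed for the active photolyase group alone, so that the enzyme and the light cannot be told apart in any comparison with it. No harvest time is listed for control. Whether the 2 libraries of each group derive from separate cultures is not in the labels, and the p-values below reflect no more than how these libraries varied, and that variation may be technical.

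MYC binds DNA only as a dimer with MAX, at the sequence CACGTG (the E-box) and its variants, and activates genes of growth, ribosome assembly and metabolism. The MXD proteins (MXD1, MXD3, MXD4 and MXI1), MNT and MGA also pair with MAX at the same sites. The MXD proteins and MNT recruit the SIN3 and histone deacetylase corepressor, so that MAX dimers can switch a gene up or down depending on the partner. MLX is the MAX-like partner of MLXIP (also called MondoA), which senses glucose metabolites, and it pairs with some MXD proteins and MNT as well. The MYC messenger is short-lived, and in epidermis MXD1 is best known as a gene switched on in differentiating cells. UVC lesions stall RNA polymerase II within genes.

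The network can act on its own genes through the E-box, and the promoters of 3 members that moved in different ways are shown for that reason. Each has 300 bases, from 250 before to 50 after the annotated start (RefSeq, build GRCh38.p14, not the hg19 build of the deposited data), read 5′ to 3′ on the gene's strand, with CACGTG in capitals. MXD4 was higher after UVC and MNT lower, and both hold an E-box here, 238 and 193 bases before the start. MXD1, with the deepest fall of the 10, has none in this window, and neither have MXD3 and MXI1, which were higher after UVC.
MXD4 (chr4:2262060-2262359, minus strand): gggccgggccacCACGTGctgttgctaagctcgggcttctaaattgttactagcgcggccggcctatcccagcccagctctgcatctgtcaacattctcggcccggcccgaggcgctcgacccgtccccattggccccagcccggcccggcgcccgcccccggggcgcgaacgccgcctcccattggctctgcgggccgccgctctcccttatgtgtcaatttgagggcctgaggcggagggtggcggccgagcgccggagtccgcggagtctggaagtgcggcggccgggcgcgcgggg
MNT (chr17:2401011-2401310, minus strand): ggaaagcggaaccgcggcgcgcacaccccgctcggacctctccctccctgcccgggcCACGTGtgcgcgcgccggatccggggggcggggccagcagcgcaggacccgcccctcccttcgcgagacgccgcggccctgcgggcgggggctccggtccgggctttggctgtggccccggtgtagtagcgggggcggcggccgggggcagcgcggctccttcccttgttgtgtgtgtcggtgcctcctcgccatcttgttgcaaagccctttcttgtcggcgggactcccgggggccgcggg
MXD1 (chr2:69914859-69915158, plus strand): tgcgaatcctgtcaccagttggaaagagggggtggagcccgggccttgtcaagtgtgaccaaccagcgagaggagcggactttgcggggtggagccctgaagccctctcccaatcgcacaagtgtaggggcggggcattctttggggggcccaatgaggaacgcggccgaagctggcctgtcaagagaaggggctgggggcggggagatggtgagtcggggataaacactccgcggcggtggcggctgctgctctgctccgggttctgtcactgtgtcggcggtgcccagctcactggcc
The promoter table matched 9 members, with 14 promoters, and MYC was not matched. An E-box (a palindrome, so the same on both strands) stood in 3 of those 14, at MXD4, MNT and MLX, where it began 50 bases before the start. Among all 35116 listed promoters, 7.26% hold one. A match describes the letters only, and variants of CACGTG were not searched.

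Total gene counts ran from 69960028 and 67153025 with active photolyase through 58420526 and 57669389 after UVC to 70005705 and 69585649 in control. Mitochondrially encoded genes took 4.09 and 3.21% of counts with active photolyase, 5.13 and 5.28% after UVC, and 3.32 and 3.92% in control, and the part of this shift in the results was not tested. All 10 keratinocyte markers passed the filter, with a summed level of 22500 to 22600 scaled cRPKM with active photolyase, 14400 to 14700 after UVC and 23400 to 24000 in control, while 1 of 7 melanocyte, 2 of 8 fibroblast and 4 of 9 immune cell markers passed it. The summed level of the melanocyte markers was 1.35 to 1.49, 1.49 to 1.74 and 2.19 to 2.25 in the same order, with TYR at 0 in all libraries. The fibroblast markers summed to 9.25 to 9.62, 8.34 to 8.61 and 7.33 to 8.44, and the immune cell markers to 188 to 199, 181 to 183 and 133 to 146, with NKG7 at 0. The part of these markers in the results was not tested. Levels are given as corrected RPKM (cRPKM, reads per effective length and library total) divided by a library scaling factor (trimmed mean of M values, TMM), called scaled cRPKM here, and they can be compared between genes. In such bulk samples fewer expressing cells and less RNA per cell cannot be told apart.

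After UVC with the photolyase inactive, MYC, its partner MAX and 5 further members were lower than in control, and MXD3, MXD4 and MXI1 were higher. MYC had 117.8 and 116.1 scaled cRPKM in the UVC libraries, against 357.7 and 359.2 in the control libraries. Both UVC libraries lay far below both control libraries. The log2 fold change was -1.61 ± 0.05 (SE; edgeR quasi-likelihood test, adjusted p = 3.63e-12), a 3.06-fold lower level. MAX, the partner that MYC needs to bind DNA, had 21.14 and 20.62 after UVC, against 43.8 and 43.84 in control (-1.07 ± 0.05, adjusted p = 2.23e-10).

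**Figure D1:**
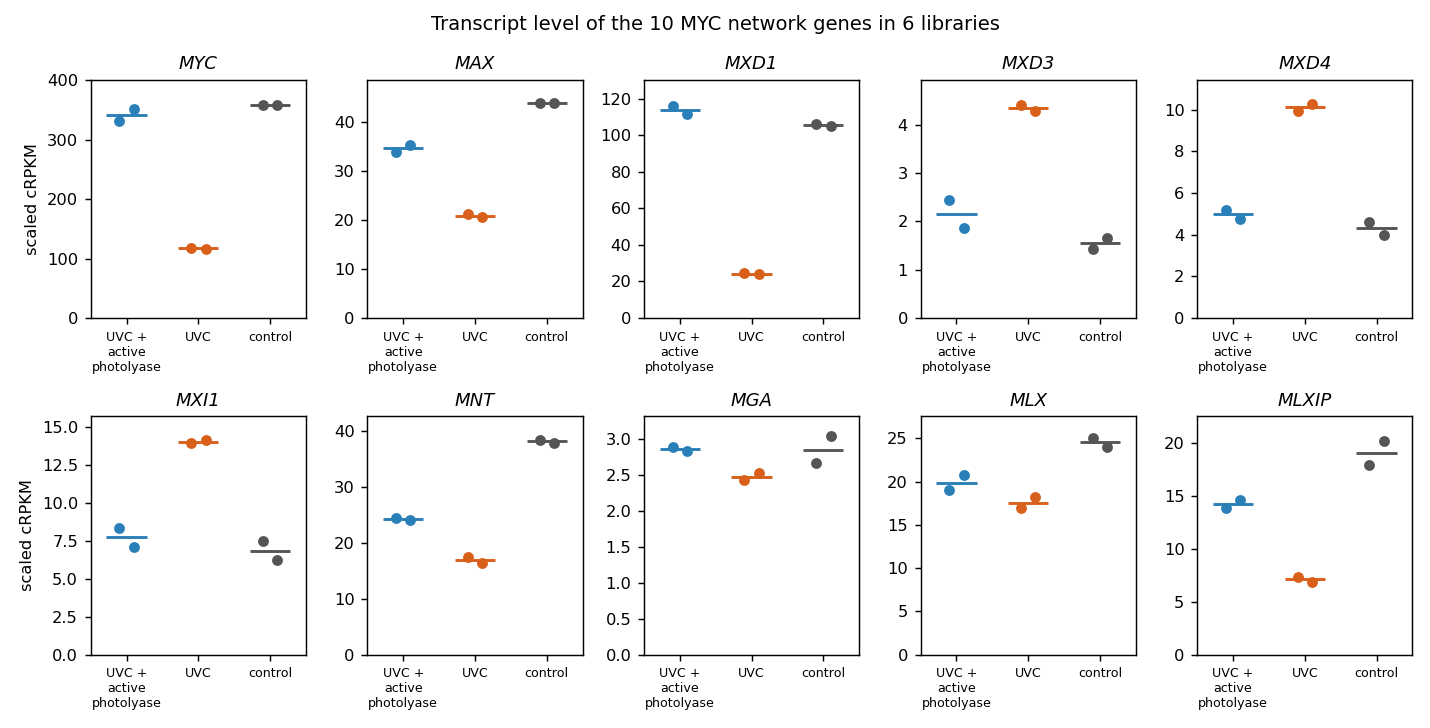
Scaled cRPKM (vertical axis, from 0) of the 10 MYC network genes in each library, by group; points are libraries and bars the mean of 2. MXD3, MXD4 and MXI1 stand highest in the UVC libraries, and the other 7 genes lowest there (by library totals MGA is higher in UVC than in control and than in active photolyase, and MLX is higher in UVC than in active photolyase).

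The MXD genes, which encode repressors that compete with MYC for MAX, did not move together. MXD1, the most abundant of them in control, had 24.4 and 24.2 scaled cRPKM after UVC, against 106.2 and 104.9 in control, and its change of -2.12 ± 0.05 was the deepest fall of the 10 (adjusted p = 2.37e-13). MXI1 had 13.95 and 14.15 after UVC, against 7.48 and 6.232 in control (1.04 ± 0.09, adjusted p = 6.62e-08). MXD4 had 9.947 and 10.27 after UVC, against 4.614 and 4.004 in control (1.23 ± 0.07, adjusted p = 1.83e-09). In neither gene did the UVC and control libraries overlap, and the UVC libraries were the high ones. MXD3, which is known from cycling cells, had the lowest level of the 10 in control, with 4.419 and 4.286 after UVC, against 1.433 and 1.651 (1.50 ± 0.14, adjusted p = 2.68e-07).

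The MXD3 value is uncertain, because its annotated exons overlap those of RAB24 (926 bases, same strand) and PRELID1 (1158 bases, opposite strand) in GENCODE 29, and the use of strand in counting is not given in the sources used here. RAB24 changed by 0.46 ± 0.06 and PRELID1 by -0.02 ± 0.05 in the same comparison (adjusted p = 5.14e-06 and 0.655). Counts for MXD3 were 437 and 419 after UVC, against 127 and 146 in control. MLX overlaps PSMC3IP (770 bases, opposite strand) and MXD1 overlaps SNRNP27 (237 bases, same strand). PSMC3IP changed by 0.47 ± 0.12 and SNRNP27 by 0.24 ± 0.07 in that comparison. The part of shared reads in the values of MXD3, MLX and MXD1 was not tested.

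Among the other MAX partners, MNT, a widely expressed repressor, fell to 17.46 and 16.37 scaled cRPKM after UVC, against 38.35 and 37.93 in control (-1.17 ± 0.05, adjusted p = 5.63e-11). MGA, the large scaffold of a variant Polycomb complex, had 2.421 and 2.519 after UVC, against 2.663 and 3.031 in control. Its change of -0.20 ± 0.07 (adjusted p = 0.012) depended on scaling, at 0.21 with library totals (adjusted p = 0.00729), and the call was lost without control replicate 2 (-0.11), UVC replicate 1 (-0.14) or UVC replicate 2 (-0.20). On the MLX side, MLXIP fell to 7.382 and 6.848 after UVC, against 17.96 and 20.17 in control (-1.42 ± 0.06, adjusted p = 1.01e-10). MLX had 16.91 and 18.18 after UVC, against 25.07 and 23.95 in control (-0.48 ± 0.06, adjusted p = 6.29e-06), and that call was lost with library totals (-0.06, adjusted p = 0.35).

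In this comparison most of the transcriptome was called, which sets the scale for the members. Of 11926 tested genes 85.6% were called, 42.5% higher and 43.1% lower, and all 10 members were called, 3 higher and 7 lower. By the stricter mark of a call with at least a 2-fold change, 9.89% of all genes were higher and 18.6% lower, and of the members 3 were higher and 5 lower. The members' median log2 change was -0.77, against 0.00 over all tested genes. MXD1 lay at percentile 4.14 of all log2 changes and MYC at percentile 8.52, and MXI1, MXD4 and MXD3 lay at percentiles 90.6, 93.7 and 96.5. The split over all genes depended on scaling, with 7095 higher and 3542 lower by library totals, which put the median of all genes at 0.42. By library totals 4 members were higher and 5 lower, and the falls of MAX (-0.65) and MNT (-0.75) no longer reached 2-fold. The falls of MYC (-1.20), MAX (-0.65), MXD1, MNT and MLXIP and the rises of the 3 other MXD genes were called in each of 16 alternative settings, a set that includes library totals and leaving out each library.

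**Figure D2:**
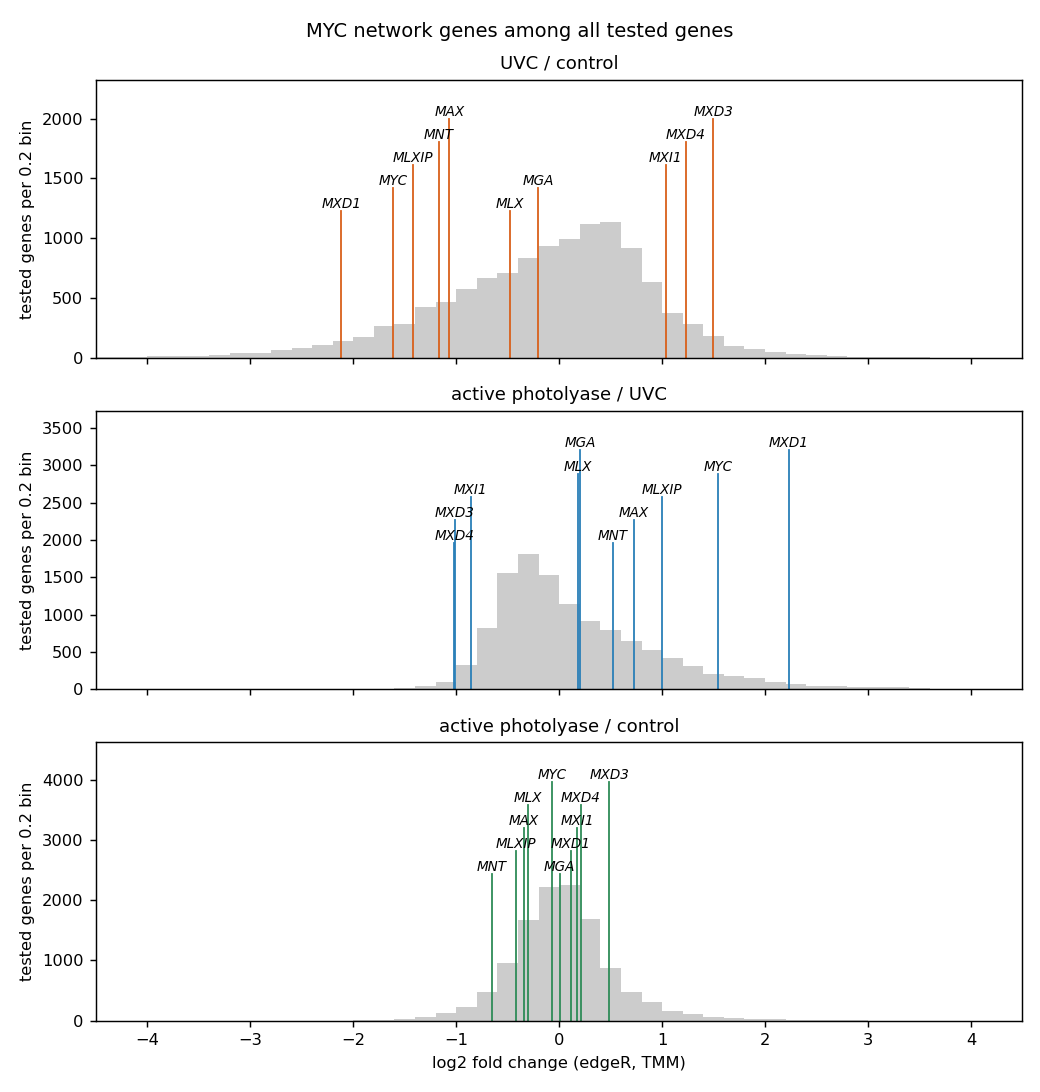
Numbers of tested genes (vertical axis, grey bars) by log2 fold change in bins of 0.2, with lines at the values of the 10 MYC network genes, for the 3 comparisons. The members spread from -2.12 to 1.50 for UVC against control and from -0.65 to 0.49 for active photolyase against control.

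Active photolyase was compared with UVC to see what the enzyme and its light changed in irradiated cells. The 7 members that were lower after UVC were higher with active photolyase than with UVC, and the 3 that were higher were lower. These comparisons share the UVC libraries, which by itself favours opposite signs, and each has its own values. How many of all tested genes turned in this way was not counted. The turn is therefore not shown to be particular to the members. MYC had 331.3 and 351.1 scaled cRPKM with active photolyase, against 117.8 and 116.1 after UVC, a log2 change of 1.54 ± 0.05 (adjusted p = 9.71e-12). MXD1 had 116.2 and 111.8, against 24.4 and 24.2 after UVC (2.23 ± 0.05, adjusted p = 3.45e-13), a 4.69-fold higher level and the largest rise of the 10. MLXIP rose to 13.85 and 14.65, against 7.382 and 6.848 after UVC (1.00 ± 0.06), and MAX rose to 33.91 and 35.24, against 21.14 and 20.62 (0.73 ± 0.05). The rise of MNT was smaller, to 24.47 and 24, against 17.46 and 16.37 after UVC (0.52 ± 0.05, adjusted p = 5.25e-07). In each of these 5 genes the 2 groups of libraries stood apart.

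MXD3, MXD4 and MXI1 went the other way. MXD4 fell to 5.198 and 4.765 scaled cRPKM with active photolyase, against 9.947 and 10.27 after UVC (-1.02 ± 0.07), and MXI1 fell to 8.363 and 7.116, against 13.95 and 14.15 (-0.86 ± 0.09). MXD3 fell to 2.452 and 1.86, against 4.419 and 4.286 (-1.01 ± 0.13), and its 2 libraries with active photolyase were the farthest apart, in relation to the level, of any member in any group. RAB24 changed by -0.14 ± 0.06 and PRELID1 by 0.22 ± 0.05 here. The values of MGA (0.21 ± 0.07, adjusted p = 0.0119) and MLX (0.18 ± 0.06, adjusted p = 0.0181) turned to -0.10 and -0.13 with library totals. MGA was also not called without any 1 of the 4 libraries compared (0.15 to 0.21), and MLX was not called without UVC replicate 1 (0.10) or active photolyase replicate 2 (0.09). The MLX call was lost with the filter at 5 cRPKM as well (0.08, adjusted p = 0.215).

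Against this, 79.1% of all tested genes were called, 39.2% higher and 39.9% lower. Rises of at least 2-fold made up 14% of genes and such falls 1.37%, and the members counted 3 and 2 of them. MLXIP (1.00), MXD3 (-1.01) and MXD4 (-1.02) lay close to that mark. By library totals MLXIP (0.69) no longer reached it and MXI1 (-1.17) did, so these counts depended on scaling. MXD4, MXD3 and MXI1 stood at percentiles 1.27, 1.36 and 3.04 of all log2 changes, with MYC at 93.3 and MXD1 at 97.4. The median over the members was 0.36, against -0.04 over all genes. With library totals the median of all genes moved to -0.34, with 3318 genes higher and 6954 lower, and the members split into 5 higher and 3 lower.

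**Figure D3:**
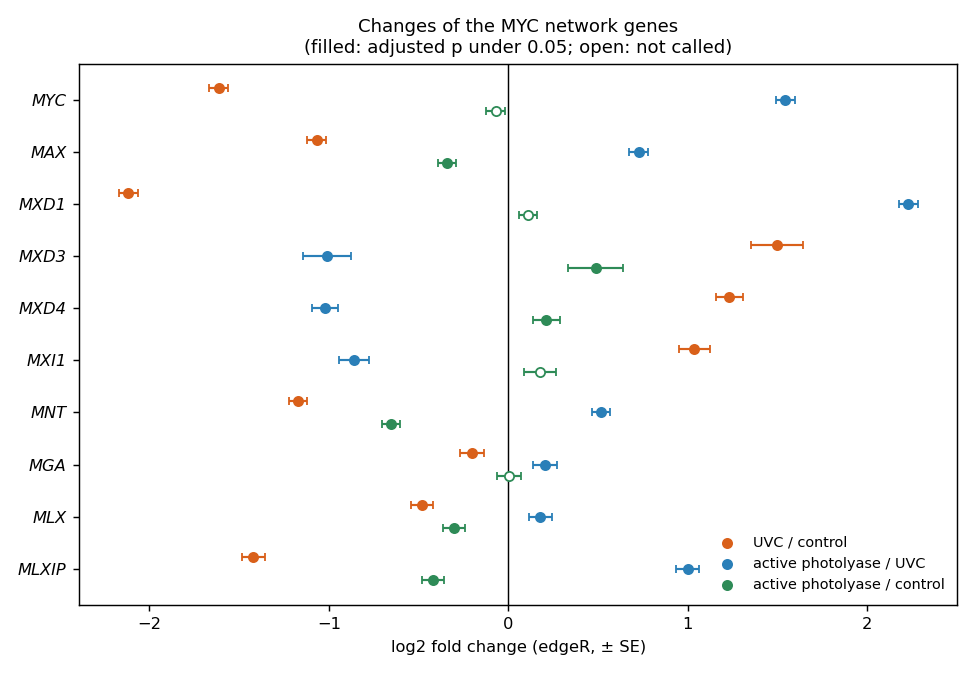
Log2 fold change ± SE (horizontal axis) of each MYC network gene in the 3 comparisons; filled points were called and open points were not. MYC, MXD1, MXI1 and MGA have open points for active photolyase against control.

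Active photolyase was then compared with control, to ask how far each level stood from that of unirradiated cells. For MYC no difference was called: 331.3 and 351.1 scaled cRPKM with active photolyase, against 357.7 and 359.2 in control (-0.07 ± 0.05, 95% interval -0.18 to 0.04, adjusted p = 0.25). The sign turned with library totals (0.04). MXD1 had 116.2 and 111.8, against 106.2 and 104.9 (0.11 ± 0.05, 95% interval 0.00 to 0.22, adjusted p = 0.0648), and it was called higher in 5 of 16 alternatives, which were library totals (0.22, adjusted p = 0.00157), the filter at 5 cRPKM (0.13, adjusted p = 0.026) and limma at each pseudocount. The limma fits used deposited cRPKM without TMM factors, so they share the scaling of library totals and are not separate evidence on it. MXI1 was not called (0.18 ± 0.09, 95% interval -0.02 to 0.37, adjusted p = 0.0962), though it was with the replicate block (0.18, adjusted p = 0.0493) and with library totals (0.29, adjusted p = 0.00998). Without control replicate 1 (0.31) or active photolyase replicate 2 (0.29) MXI1 was called as well. MGA had 0.00 ± 0.07, with a 95% interval of -0.14 to 0.15 and adjusted p = 0.965.

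MNT stayed the farthest below control among the members, with 24.47 and 24 scaled cRPKM with active photolyase, against 38.35 and 37.93 in control (-0.65 ± 0.05, adjusted p = 1.27e-07). MLXIP (-0.42 ± 0.06), MAX (-0.34 ± 0.05) and MLX (-0.30 ± 0.06) were lower too, and these 4 calls held in each of the 16 alternatives. MAX had 33.91 and 35.24 with active photolyase, against 43.8 and 43.84 in control. MXD3 (0.49 ± 0.16, adjusted p = 0.014) and MXD4 (0.21 ± 0.08, adjusted p = 0.0256) were called higher. The MXD3 call was lost without control replicate 1 (0.38) or active photolyase replicate 1 (0.27), and the MXD4 call without control replicate 2 (0.11) or active photolyase replicate 1 (0.15). The MXD4 call was also lost without the filter on low values (0.16) and with only the 2 groups fitted (adjusted p = 0.054). Of all genes 65.8% were called, 33% higher and 32.9% lower, and of the members 2 were higher and 4 lower. None of the 10 differed by 2-fold, as did 4.06% of all genes upward and 2.02% downward. On the log2 scale of the group means, active photolyase had undone 105% of the UVC shift for MXD1, 95.6% for MYC, 83.1% for MXI1, 83% for MXD4, 70.5% for MLXIP, 68.1% for MAX, 67.7% for MXD3, 44.2% for MNT and 37.4% for MLX, a description that carries no test. No such share was worked out for all genes. The shares of MNT and MLX depended on scaling. By library totals MNT changed by -0.75 for UVC over control and by 0.21 for active photolyase over UVC, and MLX by -0.06 and -0.13, so that no part of its shift was undone.

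Ratios between members within a library do not depend on library scaling. The summed deposited cRPKM of the repressors MXD1, MXD3, MXD4, MXI1 and MNT were 149.53 and 143.08 with active photolyase, 82.9 and 81.95 after UVC, and 140.11 and 136.79 in control. MYC stood at 2.11 and 2.35 times that sum with active photolyase, at 1.68 and 1.68 times after UVC, and at 2.26 and 2.32 times in control (mean 2.23 ± 0.166, 1.68 ± 0.00203 and 2.29 ± 0.0418, SD, n = 2 each). The UVC libraries lay below the other 4. With 2 libraries a group an exact permutation test cannot pass, and none was made. With MXD1 alone as the divisor the UVC libraries stood above the other 4: MYC over MXD1 was 2.85 and 3.14 with active photolyase, 4.83 and 4.8 after UVC, and 3.37 and 3.42 in control. MYC over MAX was 9.77 and 9.96 with active photolyase, 5.57 and 5.63 after UVC, and 8.17 and 8.19 in control, with no overlap between any groups.

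The repressor pool also differed in its make-up. MXD1 was 74.2 and 74.8% of the summed repressor cRPKM with active photolyase, 34.8 and 34.9% after UVC, and 67.2 and 67.8% in control. MXD3, MXD4 and MXI1 together were 10.2 and 9.19% with active photolyase, 40.3 and 41.4% after UVC, and 8.56 and 7.68% in control. MNT held 15.6 and 16.1% with active photolyase, 24.9 and 23.6% after UVC, and 24.3 and 24.5% in control, so that the MNT shares of the UVC and control libraries overlapped.

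**Figure D4:**
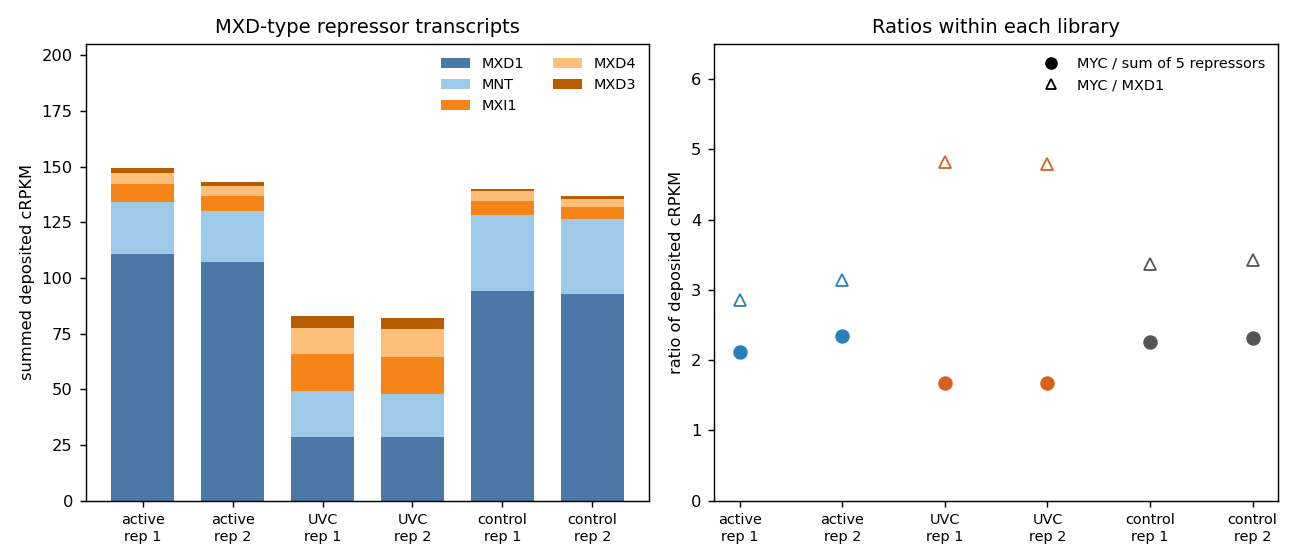
Left, deposited cRPKM of the 5 MXD-type repressor genes stacked for each library; right, the ratio of MYC to their sum (circles) and to MXD1 alone (triangles), both on axes from 0. MXD1 is the tallest part in every library, and its share is 34.8 and 34.9% in the UVC libraries.

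By level, MYC was the most abundant of the 10 transcripts in every group, followed by MXD1 and MAX, and no neighbours among these first 3 overlapped between replicates. MYC made up 59.4 and 61.2% of the summed network level with active photolyase, 49.9 and 49.7% after UVC, and 59.1 and 59.4% in control. With active photolyase and in control the order went on as MNT, MLX, MLXIP, MXI1, MXD4, MGA and MXD3, each apart from the next. After UVC it ran MLX, MNT, MXI1, MXD4, MLXIP, MXD3 and MGA, and MLX (16.91 to 18.18) and MNT (16.37 to 17.46) overlapped. MLX over MLXIP was 1.38 and 1.41 with active photolyase, 2.29 and 2.66 after UVC, and 1.4 and 1.19 in control.

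Among the genes most like MYC in pattern, by the distance between centred log2(scaled cRPKM + 1) values over the 6 libraries, were DKK1 (distance 0.0739), DDX3X (0.092), CRTAM (0.0929) and ZMYND19 (0.113), against a median of 1.88 over 11925 genes. The added 1 weighs on low genes: CRTAM averaged 3.286 ± 0.00805 scaled cRPKM with active photolyase, 0.4526 ± 0.0543 after UVC and 3.57 ± 0.121 in control, and its fitted change for UVC over control was -2.97, against -1.61 for MYC. DKK1, a secreted Wnt inhibitor, averaged 251.6 ± 4.56 scaled cRPKM with active photolyase, 84.32 ± 1.54 after UVC and 255.6 ± 3.88 in control (SD, n = 2 each). Of the close relatives of the members, MYCL had 9.727 ± 0.812 with active photolyase, 2.864 ± 0.104 after UVC and 6.58 ± 0.236 in control, with changes of 1.76 ± 0.08 (active photolyase over UVC), -1.20 ± 0.08 (UVC over control) and 0.57 ± 0.07 (active photolyase over control). All 3 were called (adjusted p of at most 1.37e-05). MLXIPL, the second MLX partner of glucose sensing (ChREBP), was low, at 1.12 ± 0.254 with active photolyase, 1.282 ± 0.0765 after UVC and 0.7682 ± 0.0653 in control. MYCN was under the filter, at 1.13 ± 0.16, 0.05076 ± 0.012 and 0.2655 ± 0.0244 in the same order, and was not tested.

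Genes that MYC is known to activate were mostly lower after UVC. Of 45 listed 42 were tested, and 33 were lower, 2 higher and 7 not called in UVC against control (median -0.83, against 0.00 over all genes), where 43.1% of all genes were lower. BOP1 was not analysed here, and PPAN and TERT were under the filter. This list and those below were chosen with earlier results of these data known. Their counts against all genes are therefore a description and no independent support. The hexokinase HK2 averaged 2.614 ± 0.129 scaled cRPKM after UVC and 20.81 ± 1.46 in control (-2.99 ± 0.07), and the ribosome assembly factor WDR43 6.653 ± 0.526 and 39.22 ± 0.933 (-2.56 ± 0.06). The 2 that rose were the cell cycle kinase CDK4 (0.42 ± 0.05) and the folate carrier SLC19A1 (0.66 ± 0.10). With active photolyase against UVC 36 of the 42 were higher and 3 lower (median 0.80), where 39.2% of all genes were higher and 39.9% lower (median -0.04). Among them were HK2 (2.80 ± 0.07) and WDR43 (2.25 ± 0.06) upward and CDK4 (-0.31 ± 0.05) downward. Against control 5 were higher and 18 lower (median -0.09), none by 2-fold, where 33% of all genes were higher and 32.9% lower. By library totals 10 were higher and 28 lower after UVC than in control, where 7095 and 3542 of all 11926 genes were. With active photolyase 27 were then higher and 9 lower than after UVC (3318 and 6954 of all genes). Against control 13 were higher and 10 lower (5237 and 2840 of all genes).

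Genes that MYC is known to repress were divided. Of 9 tested, 5 were higher and 4 lower after UVC (median 0.69), where 42.5% of all genes were higher and 43.1% lower. With active photolyase against UVC 4 were higher and 3 lower (median 0.07), where 39.2% of all genes were higher and 39.9% lower. By library totals the split for active photolyase over UVC was 4 higher and 5 lower (median -0.24). Over all 11926 genes 3318 were then higher and 6954 lower (median -0.34). Of these, CDKN2B, an inhibitor of the cyclin D kinases, averaged 87.08 ± 4.51 scaled cRPKM with active photolyase, 92.07 ± 3.38 after UVC and 34.94 ± 1.7 in control. It rose in both irradiated groups against control (1.32 ± 0.06 with active photolyase and 1.40 ± 0.06 after UVC), and active photolyase against UVC was not called (-0.08 ± 0.06, adjusted p = 0.207). That last result depended on the setting, since CDKN2B was called lower by library totals (-0.39, adjusted p = 1.94e-05), with a filter at 5 cRPKM (-0.18, adjusted p = 0.0129) and by limma at each pseudocount (-0.38 to -0.39). The limma values share the scaling of library totals. The damage-induced gene GADD45A rose after UVC (0.73 ± 0.05). The matrix protein gene THBS1 fell to 87.47 ± 2.76 after UVC, against 503.2 ± 24.6 in control (-2.52 ± 0.06), and the stress gene NDRG1 to 113.8 ± 2.97, against 444.5 ± 16 (-1.96 ± 0.05). Both were also below control with active photolyase, by -0.91 ± 0.06 and -0.96 ± 0.05. Of the targets of MLXIP and MLX, KLF10 (0.60 ± 0.05) and the arrestin-related ARRDC4 (0.27 ± 0.06) were higher after UVC, and TXNIP was not analysed here.

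**Figure D5:**
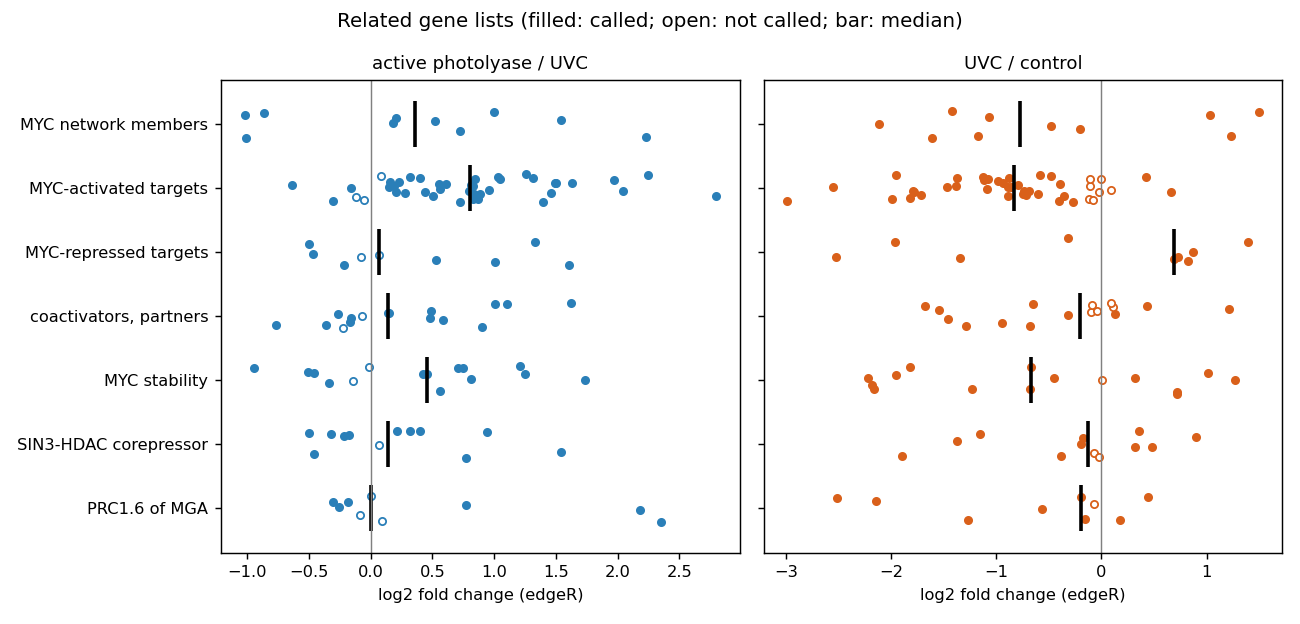
Log2 fold changes (horizontal axis) of the tested genes in 7 lists, for active photolyase against UVC (left) and UVC against control (right); filled points were called, open points were not, and bars are medians. The MYC-activated targets have medians of 0.80 and -0.83.

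Among 16 coactivators and binding partners of MYC, 3 were higher and 8 lower after UVC (median -0.21). Over all genes 42.5% were higher and 43.1% lower, so the share of lower genes was near the background and that of higher genes was below it. The cyclin T1 gene CCNT1 (-1.46 ± 0.05) fell, and the acetyltransferase gene KAT2A (1.21 ± 0.06) and its scaffold TRRAP (0.43 ± 0.10) rose. With active photolyase against UVC 9 were higher and 5 lower, where 39.2% of all genes were higher and 39.9% lower. CCNT1 changed by 1.62 ± 0.05 and KAT2A by -0.77 ± 0.06 there. With library totals the counts after UVC turned to 8 higher and 7 lower, where 7095 and 3542 of all 11926 genes were.

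Of 15 genes that set the stability of the MYC protein, 5 were higher and 9 lower after UVC (median -0.67), against 42.5% and 43.1% of all genes. By library totals 6 were higher and 8 lower (median -0.25), where 7095 and 3542 of all 11926 genes were (median 0.42). GSK3B, a kinase that marks MYC for degradation, averaged 16.72 ± 0.475 scaled cRPKM after UVC and 77.99 ± 1.31 in control (-2.22 ± 0.05), and the ubiquitin ligase subunit gene BTRC 1.738 ± 0.0761 and 7.913 ± 0.118 (-2.19 ± 0.06). Both were also below control by at least 2-fold with active photolyase (-1.41 ± 0.05 and -1.43 ± 0.06). The ligase subunit gene SKP2 (1.27 ± 0.09) and the deubiquitinase gene USP28 (0.72 ± 0.06) rose after UVC, and with active photolyase both were lower than after UVC (-0.95 ± 0.09 and -0.46 ± 0.06).

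Of 12 genes of the corepressor of the MXD proteins 4 were higher and 6 lower after UVC (median -0.12), near the 42.5% and 43.1% of all genes. Its scaffold gene SIN3A fell (-1.38 ± 0.06) as did ARID4B (-1.90 ± 0.07), and SAP30 (0.90 ± 0.12) and SUDS3 (0.48 ± 0.06) rose. Of 9 partners of MGA in the PRC1.6 complex 2 were higher and 6 lower (median -0.20), where 42.5% of all genes were higher and 43.1% lower. RYBP had 10.57 ± 0.407 scaled cRPKM with active photolyase, 2.064 ± 0.118 after UVC and 11.88 ± 0.00253 in control, and the E2F family repressor gene E2F6 9.062 ± 0.129, 1.988 ± 0.0737 and 8.817 ± 0.248. RYBP fell by 2.52 ± 0.06 and E2F6 by 2.15 ± 0.07 on the log2 scale after UVC, while PCGF6 (0.45 ± 0.10) and RING1 (0.17 ± 0.06) rose. The RING1 call was lost without the filter on low values (0.08, adjusted p = 0.233). With library totals 8 corepressor genes were higher and 3 lower, and 5 and 4 of the PRC1.6 genes. Over all 11926 genes 7095 were then higher and 3542 lower.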

How the data were processed

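RNA from 6 HaCaT libraries was sequenced after an Illumina TruSeq preparation, per the labels' protocols, and aligned with Bowtie to hg19, per the submitters' processing notes. How reads were counted, whether by strand, and against which annotation is not given in the sources used here. The authors deposited raw read counts and corrected RPKM values (cRPKM) of 19847 Ensembl genes, 354 of them without values. Symbols were matched for 18698 of 19493 identifiers. Counts of genes with at least 1 cRPKM in at least 2 libraries (11926) were fitted with edgeR 4.0.16 in R 4.3.3: TMM factors (0.884 to 1.18), 3 group means over all 6 libraries, quasi-likelihood F test, two-sided, Benjamini-Hochberg over all tested genes, called at an adjusted p under 0.05. Printed levels are the deposited RPKM divided by the TMM factor. SE was taken from the fold change and F. The biological coefficient of variation common to all genes was 4.62%. TMM assumes that most genes did not change, whereas 85.6% of tested genes were called for UVC against control. All changes are relative, by TMM and by library totals alike. Replicates differed beyond sampling noise (chi-square per degree of freedom 15, 5.59 and 24.2 with active photolyase, after UVC and in control). DESeq2 1.42.0 and limma 3.58.1 were alternatives. The limma fits used log2 of the deposited cRPKM plus a pseudocount, without TMM factors, and so have the scaling of library totals. The members and lists were chosen with earlier results of these data known. Named were all members, from each list the genes of smallest p in UVC against control (up to 2 each way), and the 5 genes nearest to MYC; 2 genes that this rule names are not reported here. Overlapping and neighbouring genes were named after their values were seen.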

Additional observations from a re-analysis of the deposited data

How the results depend on the processing

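The scaling of the libraries mattered most. The shares of higher calls were 49.7, 49.6 and 50.1% for UVC against control, active photolyase against UVC, and active photolyase against control, and 66.7, 32.3 and 64.8% with library totals, because the median of all genes then lay at 0.42, -0.34 and 0.12. For active photolyase against control the members called higher numbered 2, against 4 by library totals or by limma (pseudocount 1 or 2), 1 with no filter or with only the 2 groups compared, and 0 to 3 when 1 library was left out (1 without control replicate 2, 0 without active photolyase replicate 1 and 3 without its replicate 2). Values that changed sign with library totals and with limma at pseudocounts of 1, 0.1 and 2, which all share that scaling, were as follows. MGA had 0.21, 0.16, 0.21 and 0.12 for UVC against control and -0.10, -0.074, -0.096 and -0.058 for active photolyase against UVC. MLX had -0.13, -0.12, -0.13 and -0.12 and ARRDC4 -0.21, -0.18, -0.20 and -0.15 for active photolyase against UVC. For active photolyase against control MYC had 0.040, 0.039, 0.039 and 0.039, SUDS3 0.093, 0.082, 0.091 and 0.073, and RING1 0.10, 0.096, 0.10 and 0.092. In that last comparison, without a filter MGA had -0.044, SLC19A1 -0.021 and E2F6 -0.0085, and with a filter at 5 cRPKM SUDS3 had 0.0053 and RING1 0.015. Leaving out 1 library there gave MGA -0.091 to 0.10, SLC19A1 -0.11 to 0.16, TRRAP -0.13 to 0.31, RING1 -0.054 to 0.043 and SUDS3 -0.048 to 0.011. Of these values in the comparison with control, TRRAP without control replicate 2 was called (0.31, adjusted p = 0.00203), and the values that changed sign were not. The mean ratio of MYC to the summed repressors was 0.979 with active photolyase, 0.858 after UVC and 1.01 in control from read counts, and 2.65, 2.21 and 3.03 without MNT, against 2.23, 1.68 and 2.29. Left-out libraries gave 2.11 to 2.35 with active photolyase, 1.68 after UVC and 2.26 to 2.32 in control.

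Replicate numbers were not taken to pair the samples: the deviations of same-numbered libraries correlated at 0.179 between active photolyase and UVC, 0.0467 between active photolyase and control, and -0.0202 between UVC and control, over 11926 genes. With the replicate block 5086 genes were higher and 5152 lower for UVC against control, against 5074 and 5140 without it, and for active photolyase against control MXI1 (adjusted p = 0.0493) and CDK4 (adjusted p = 0.0441) were called, the only calls among the named genes that the block changed. The cause of these changes was not tested. Depth was at least 127 reads for each member in each library, and MXD3 had the fewest.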
